A study of Rattus norvegicus with 6 samples.

Results

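The 10 genes described here encode the granins and the enzymes that cut neuropeptide precursors inside secretory granules. They were taken by symbol from tables of 30498 genes, and each had a single entry. The granins are Chga, Chgb, Scg2, Scg3 and Vgf, the enzymes are the convertases Pcsk1 and Pcsk2 and the carboxypeptidase Cpe, and the remaining members, Scg5 and Pcsk1n, encode small proteins that bind the convertases. RNA with a poly(A) tail was sequenced from newborn rat brains (Rattus norvegicus) in 2 groups of 3 libraries. In the CR group the mother had been calorically restricted, which serves as a model of fetal growth restriction, and in the control group she had not. Delivery was by Caesarean in both groups, with brains collected immediately. The labels used here give no strain, sex or degree of restriction. They also leave unsaid if the libraries stand for different pups or litters, and p-values therefore cover library-to-library spread, which may be technical.

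Neuropeptides and peptide hormones are made as larger precursors that enter the regulated secretory pathway. Granins are acidic proteins that aggregate in the trans-Golgi network and help to form dense-core vesicles, where the convertases cut precursors after paired basic residues and carboxypeptidase E trims the basic residues left behind. In brain, these proteins are found widely in neurons and at high levels in neurosecretory cells such as those of the hypothalamus, and several granins are themselves cut into active peptides.

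All 6 libraries are labelled whole brain, and regional markers differed between the groups. The 11 midbrain markers summed to 1.2 to 2.48 FPKM (fragments scaled to exon length and library depth) in control and to 32.7 to 43.1 FPKM in CR. The 13 hypothalamic markers summed to 8.78 to 11 and 51.9 to 74.2 FPKM, and the 10 dorsal telencephalic markers to 584 to 757 and 215 to 342 FPKM. Much of the hypothalamic sum in CR, 62.6 FPKM on average, came from the peptide precursor genes Pmch and Avp (means of 20.9 and 17.6 FPKM). Of hypothalamic markers that encode no peptide, Nkx2-1 went from a mean of 3.08 to 4.49 FPKM and Otp from 0.0954 to 4.12 FPKM. These genes were named after their values were seen. Of 13 hindbrain markers, 5 were without reads throughout the control group, and CR replicate 3 stood apart with a hindbrain sum of 67.2 FPKM, where its group's other libraries had 21.7 and 19.3 FPKM. Regional content and maternal feeding differed between the same libraries and cannot be told apart, nor can fewer cells of a type and less RNA per cell. Libraries held 14030961 to 25734737 assigned reads, worked out from the FPKM, and 3 reads of a gene with 1 kb of exon gave 0.117 to 0.214 FPKM. Replicates differed by more than counting noise.

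Of the 10 genes, 9 rose in CR, none fell and 1, Scg3, did not pass the test. The test was limma on log2(FPKM + 1) with a Benjamini-Hochberg adjusted p threshold of 0.05 over the 15247 genes whose mean reached 0.5 FPKM, and all 10 were among these. Over all tested genes 33.9% passed, 17.7% as higher and 16.2% as lower. The median log2 fold change, CR minus control, was 0.70 for the 10 genes and 0.01 for all tested genes. In 9 of the 10 genes every CR library was above every control library, against 26.1% of all tested genes in that direction (24.3% were apart as lower, 50.3% in either direction). Without CR replicate 2, without CR replicate 3 or without control replicate 1 the count was 8, since the call for Pcsk2 was lost.

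**Figure D1:**
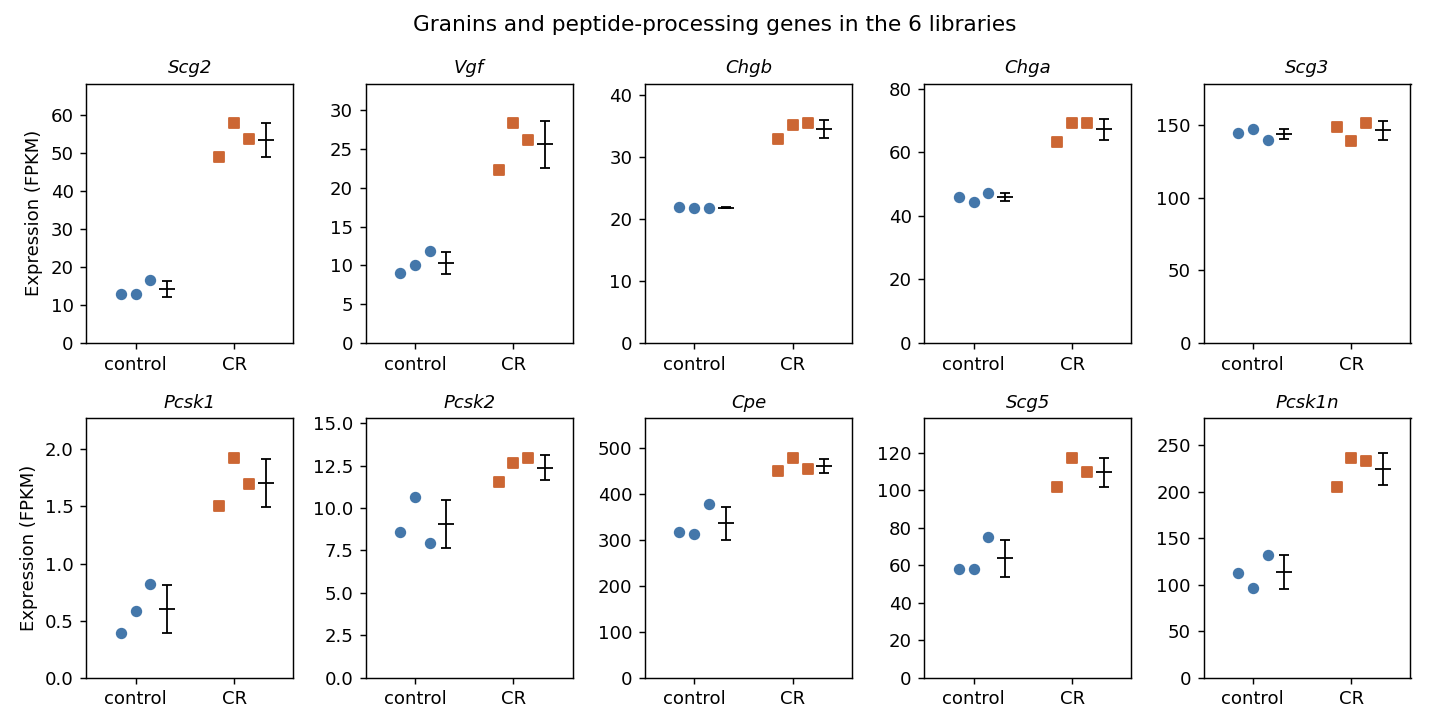
Expression in FPKM (vertical axes, each from 0) of the 10 genes in the 3 control libraries (blue circles) and the 3 CR libraries (orange squares); the black bar beside each group is its mean ± SD. The groups are apart in every panel but Scg3, where the CR values of 139 to 152 FPKM enclose the control values of 140.1 to 147 FPKM.

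Scg2 encodes secretogranin II, the precursor of the neuropeptide secretoneurin, and had the largest log2 fold change of the 10 genes. In order of replicate number, here and below, the control libraries had 12.9, 12.9 and 16.6 FPKM, and the CR libraries had 48.8, 57.8 and 53.7 FPKM. The lowest CR value was 2.93 times the highest control value. The group means were 14.1 ± 2.17 and 53.4 ± 4.49 FPKM (SD, n = 3 each), a 3.78-fold difference, and the log2 fold change was 1.85 (SE 0.106, limma adjusted p = 0.000136). Of all tested genes, 99.7% had a lower log2 fold change. Scg2 (ENSRNOG00000015055) lies on chromosome 9 of mRatBN7.2 from 80803075 to 80821097 on the minus strand.

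Vgf encodes a precursor, first known as a gene induced by nerve growth factor, that is cut into several peptides acting on energy balance and synaptic activity. It was at 8.98, 10.1 and 11.8 FPKM in control and at 22.3, 28.3 and 26.1 FPKM in CR, so the groups did not overlap. Its log2 fold change was 1.24 (SE 0.114, limma adjusted p = 0.000632), a 2.48-fold difference of means. The gene (ENSRNOG00000001416, chromosome 12, 19637320 to 19640341, minus strand) lies within the annotated span of Ap1s1 on the opposite strand. No exon of Ap1s1 overlapped an exon of Vgf in the tables, and Ap1s1 was at 45.9 to 51.4 FPKM over the 6 libraries.

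The promoters of Scg2 and Vgf are shown because these had the largest log2 fold changes of the 5 granins and both promoters held the cAMP response element, the binding site of CREB factors. RefSeq promoter sequences (assembly GRCr8, 250 bases before to 50 after a gene start) were matched by symbol for 8 of the 10 genes. The full element TGACGTCA, which reads the same on both strands, was in 2 of these 8 and in 612 (1.83%) of all 33469 promoters of that length. Its first base lay 123 bases upstream of the listed start in Scg2 and 90 in Vgf; for both genes that start lies inside the span RefSeq gives the gene, so other starts exist. In the sequences below, written 5′ to 3′ on the gene's own strand, the element is in capitals. They cover chr9:88256922-88257019 for Scg2 and chr12:25277043-25277140 for Vgf, both on the minus strand of GRCr8.
Scg2: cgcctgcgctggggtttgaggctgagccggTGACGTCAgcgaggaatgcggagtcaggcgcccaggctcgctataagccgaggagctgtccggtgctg
Vgf: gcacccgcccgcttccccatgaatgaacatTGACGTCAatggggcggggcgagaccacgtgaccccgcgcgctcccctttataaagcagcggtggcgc

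A 5-base core of the element, TGACG or its reverse complement CGTCA, was in 6 of the 8 promoters and in 21.2% of all promoters; the count of 6 includes Scg2 and Vgf, whose full elements hold both forms. The shorter match in Cpe, which rose, and in Scg3, which did not pass the test, is printed with the core in capitals. These windows are chr16:29796522-29796550 (plus strand) for Cpe and chr8:85322537-85322565 (minus strand) for Scg3, both on GRCr8.
Cpe: ccatttggctttTGACGtgggtctgagcc
Scg3: gcgctgggtcgcTGACGccatcctcacgc
The core was in the promoters of Scg5 and Pcsk2 as well, and neither form was in those of Chgb and Pcsk1n, which both rose. These are matches of letters only, and binding was not measured.

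Chga and Chgb encode chromogranins A and B, the main soluble proteins of chromaffin granules and of many neuronal dense-core vesicles. Chga was at 46.0, 44.4 and 47.2 FPKM in control and at 63.2, 69.1 and 69.0 FPKM in CR. Chgb was at 21.9, 21.7 and 21.8 FPKM in control and at 32.9, 35.2 and 35.4 FPKM in CR. The coefficient of variation of Chgb over the control libraries was 0.462%, the lowest of the 10 genes. Counting error at its 2126 to 6298 reads per library is larger than this, so the value does not show an unusually steady gene. The differences of means were 1.46-fold for Chga (log2 fold change 0.54, SE 0.0517, limma adjusted p = 0.000696) and 1.58-fold for Chgb (0.64, SE 0.0485, limma adjusted p = 0.000396). Chga (ENSRNOG00000052549) lies on chromosome 6 from 121696051 to 121707398 and Chgb (ENSRNOG00000021269) on chromosome 3 from 120043738 to 120057166, both on the plus strand.

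Scg3 encodes secretogranin III, which binds cholesterol in the granule membrane and carries chromogranin A to it, and is made by astrocytes as well as neurons. It was at 144, 147 and 140.1 FPKM in control and at 149, 139 and 152 FPKM in CR, and the groups overlapped. The log2 fold change was 0.02 with a 95% interval from -0.09 to 0.14 (limma adjusted p = 0.725), and over the alternatives it ran from -0.05 to 0.06, with its sign turning under median-ratio size factors and quantile normalization. These limits lie below the lower 95% bound of 0.42 for Chga and of 1.6 for Scg2; the differences between genes were not tested. Between 4386 and 8424 reads per library lay behind these values. Scg3 (ENSRNOG00000010784) lies on chromosome 8 from 76399777 to 76442015 on the minus strand.

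**Figure D2:**
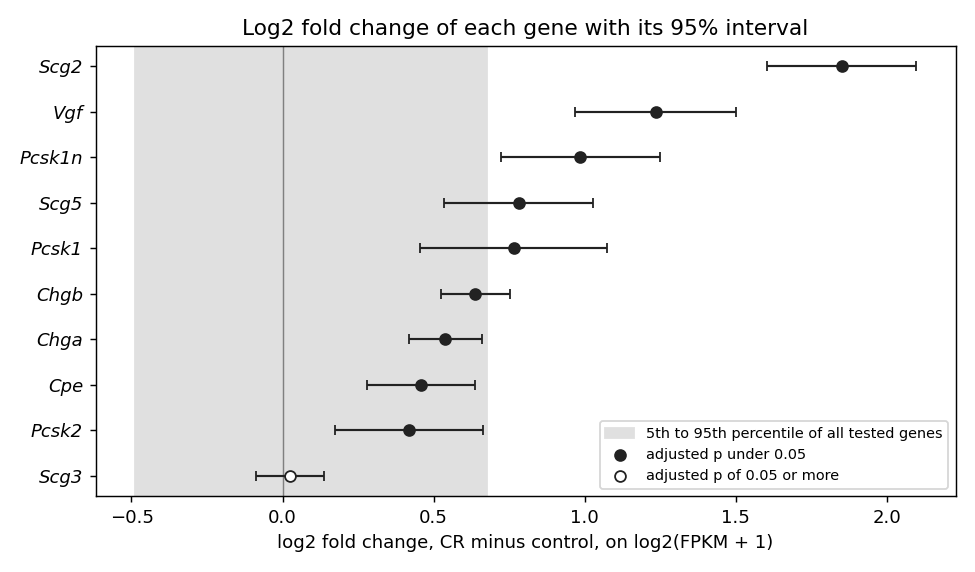
Log2 fold change (horizontal axis, CR minus control on log2(FPKM + 1)) of each gene with its 95% interval from limma; filled points passed the threshold and the grey band runs from the 5th to the 95th percentile of all tested genes (-0.49 to 0.68). Scg2, Vgf, Pcsk1n, Scg5 and Pcsk1 lie above the band, and Scg3 lies near 0.

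Since Scg3 was level while the other granins rose, the make-up of granin RNA differed between the groups. Summed FPKM of the 5 granins was 234 to 237 in control and 316 to 336 in CR. Scg3 made up 59.0% to 62.3% of that sum in control and 42.2% to 47.2% in CR. The share of Scg2 was 5.45% to 7.01% in control and 15.4% to 17.5% in CR, and that of Vgf was 3.83% to 4.98% and 7.05% to 8.60%. Chga held a share of 18.8% to 19.9% in control and 19.99% to 20.98% in CR. These shares depend on the exon length listed for each gene, are descriptions and were not tested.

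**Figure D3:**
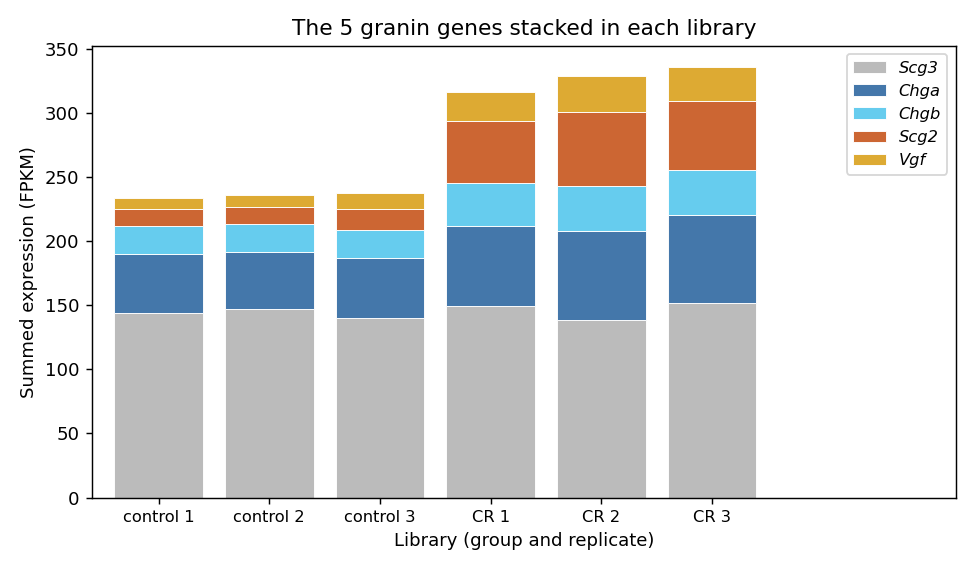
Expression of the 5 granin genes in FPKM (vertical axis) stacked for each of the 6 libraries (horizontal axis). The grey Scg3 segment is about level across libraries, while the orange Scg2 segment grows from 12.9 to 16.6 FPKM in control to 48.8 to 57.8 FPKM in CR.

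The convertases PC1/3 and PC2, serine proteases related to subtilisin, are encoded by Pcsk1 and Pcsk2. Pcsk1 was the lowest of the 10 genes in both groups, at 0.395, 0.586 and 0.817 FPKM in control and at 1.5, 1.93 and 1.70 FPKM in CR, from 28 to 250 reads per library. Its means of 0.6 ± 0.211 and 1.71 ± 0.212 FPKM differed 2.85-fold, and the groups did not overlap. The log2 fold change was 0.76 with a pseudocount of 1 (SE 0.133, limma adjusted p = 0.00491), which understates the change of so low a gene. With a pseudocount of 0.1 it was 1.41 (adjusted p = 0.00737), and with limma-voom on the recovered reads it was 1.52 (adjusted p = 0.000519). Pcsk1 (ENSRNOG00000011107) lies on chromosome 2 from 4395543 to 4442434 on the plus strand.

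Pcsk2 was at 8.58, 10.7 and 7.94 FPKM in control and at 11.5, 12.7 and 13 FPKM in CR. The lowest CR value was 1.08 times the highest control value, the narrowest gap among the 9 genes that rose. The log2 fold change of 0.42 (SE 0.106) passed the threshold (limma adjusted p = 0.0197). It no longer passed when control replicate 1 (adjusted p = 0.0553), CR replicate 2 (0.0688) or CR replicate 3 (0.0723) was left out. Pcsk2 (ENSRNOG00000005438) lies on chromosome 3 from 130880422 to 131183127 on the plus strand. An antisense pseudogene within its span shared no exon with it and was at 0.262 to 0.480 FPKM.

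Carboxypeptidase E, the product of Cpe, removes the basic residues that the convertases leave at the end of a peptide, and astrocytes express the gene too. Cpe was the highest of the 10 genes in every library, at 316, 313 and 377 FPKM in control and at 449, 478 and 453 FPKM in CR. The groups did not overlap, and the means differed 1.37-fold (log2 fold change 0.46, SE 0.0766, limma adjusted p = 0.00427). The 10 astrocyte markers summed to 205 to 248 FPKM in control and 355 to 399 FPKM in CR. Of the 10, 8 were called higher and none lower, where 17.7% of all tested genes were higher and 16.2% lower. The part of astrocyte content in the Cpe difference was not tested. Cpe (ENSRNOG00000043387) lies on chromosome 16 from 25030276 to 25142233 on the plus strand.

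Scg5 encodes the neuroendocrine protein that escorts the precursor of PC2 through the secretory pathway and keeps it competent for activation. It was at 57.8, 58.1 and 75.3 FPKM in control and at 102, 117 and 110 FPKM in CR. Control replicate 3 was the highest of its group and still below the lowest CR library. The log2 fold change was 0.78 (SE 0.106, limma adjusted p = 0.0021), a 1.72-fold difference. Scg5 (ENSRNOG00000007542) lies on chromosome 3 from 100544099 to 100588463 on the minus strand, so that 3 of the 10 genes are on this chromosome.

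Pcsk1n encodes proSAAS, a granin-like precursor that inhibits PC1/3. It was at 113, 96.0 and 132 FPKM in control and at 205, 236 and 232 FPKM in CR, and the groups did not overlap. The log2 fold change was 0.99 (SE 0.113, limma adjusted p = 0.00128), and the means of 114 ± 18.2 and 224 ± 17.2 FPKM differed 1.98-fold. Pcsk1n (ENSRNOG00000046021) lies on chromosome X from 14580038 to 14583566 on the minus strand.

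Ratios within a library compare a convertase with its partners without depending on how libraries are scaled. The Pcsk1 to Pcsk2 ratio was 0.0461, 0.0549 and 0.103 in control and 0.130, 0.152 and 0.131 in CR, so PC1/3 transcripts were higher relative to PC2 transcripts in every CR library. This difference was 1.11 on the log2 scale (two-sided exact permutation p = 0.1, the smallest that 3 against 3 libraries can give). A pseudocount of 1 in both terms lowered it to 0.35 (exact p = 0.3), and the groups then overlapped. For Pcsk2 to Scg5, enzyme to chaperone, the ratio was 0.148, 0.184 and 0.105 in control and 0.114, 0.108 and 0.118 in CR, and the groups overlapped (log2 difference -0.33, exact p = 0.4). That difference was -0.15 without control replicate 2 and -0.55 without control replicate 3. The Pcsk1 to Pcsk1n ratio, enzyme to inhibitor, was 0.00351, 0.00611 and 0.00618 in control and 0.00734, 0.00815 and 0.0073 in CR (log2 difference 0.57, exact p = 0.1). It was 0.30 without control replicate 1, and with a pseudocount of 1, which exceeds the Pcsk1 values of all control libraries, it turned to -0.22 (exact p = 0.2).

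FPKM divides by the exon length listed for each gene, such as 6922 nt for Chgb and 3501 nt for Scg2, whichever transcripts are expressed. An order between genes therefore depends on those lengths. By FPKM, the order of means in control was Cpe, Scg3, Pcsk1n, Scg5, Chga, Chgb, Scg2, Vgf, Pcsk2 and Pcsk1. Vgf and Pcsk2 were the only neighbours in that order whose library values overlapped. In CR, Pcsk1n stood above Scg3 and Scg2 above Chgb, and no neighbours overlapped. In CR, replicate 1 was the lowest library for 9 of the 10 genes and replicate 2 the highest for 7. Among controls, replicate 3 was the highest for 7. Dorsal telencephalic marker sums were 342, 215 and 290.1 FPKM in CR and 713, 757 and 584 FPKM in control, and hypothalamic sums were 51.9, 74.2 and 61.8 FPKM in CR and 11, 8.78 and 10.7 FPKM in control. CR replicate 2 had the highest hypothalamic and lowest dorsal telencephalic sum of its group. Control replicate 3 had the lowest dorsal telencephalic sum among controls, but the highest hypothalamic sum among controls was in replicate 1. The 6 thalamic markers summed to 15.6 to 37.4 FPKM in control and 120.2 to 172 FPKM in CR. The part of regional content in the differences of the 10 genes was not tested.

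**Figure D4:**
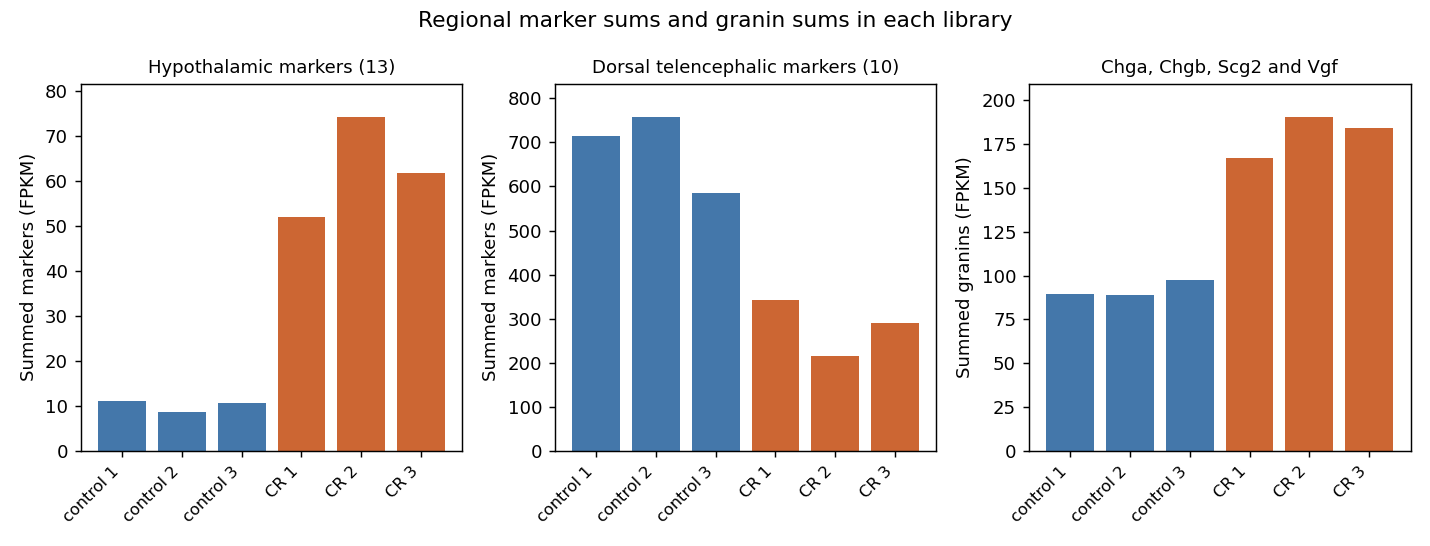
Summed FPKM (vertical axes, from 0) in each library (horizontal axes; control blue, CR orange) of 13 hypothalamic markers, 10 dorsal telencephalic markers and the granins Chga, Chgb, Scg2 and Vgf. CR replicate 2 has the highest hypothalamic sum (74.2 FPKM), the lowest dorsal telencephalic sum (215 FPKM) and the highest sum of the 4 granins (190.3 FPKM); with Scg3 added, the granin sum is highest in CR replicate 3 (336 against 329 FPKM).

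Other cells that a brain sample could hold were checked by their markers. The 13 pituitary markers, of cells rich in granins, summed to 0.620 to 1.35 FPKM in control and 6.61 to 11 FPKM in CR. Cga, the shared subunit of the glycoprotein hormones, was at 0, 0 and 0.162 FPKM in control and at 3.57, 3.89 and 0.407 FPKM in CR, and Tshb, the thyrotropin subunit, had no read in control and was at 1.21, 1.87 and 0.278 FPKM in CR. Gh1 reached 2.02 FPKM in CR replicate 3 and at most 0.167 FPKM elsewhere, and Fshb and Ghrhr had no read in any library. General neuronal markers, 14 in all, summed to 4301 to 4846 FPKM in control and 4997 to 5126 FPKM in CR. Of these, 8 were called higher and 2 lower, where 17.7% of all tested genes were higher and 16.2% lower. Their log2 fold changes ran from -0.29 for Dcx to 2.12 for Nefl, with a median of 0.21. The part of pituitary RNA or of neuronal content in the differences of the 10 genes was not tested.

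The genes nearest in pattern were those with the smallest root mean square difference from a member between mean-centred log2(FPKM + 1) profiles over the 6 libraries, among tested genes that had a symbol and averaged 5 FPKM or more. For Scg2 these were Slc17a6, Gpx3 and Ache, with differences of 0.0729, 0.0783 and 0.0961. Slc17a6, the vesicular glutamate transporter of diencephalic and brainstem neurons, was at 11.5, 12.1 and 16.7 FPKM in control and 44.1, 59.9 and 50.9 FPKM in CR. Gpx3 encodes an extracellular glutathione peroxidase and Ache encodes acetylcholinesterase. For Pcsk1, the enzyme gene with the largest log2 fold change, they were Nrn1, Tceal3 and Cntn6 (0.0503, 0.054 and 0.0568). Nrn1, which encodes the neurite growth protein neuritin, was at 25.9, 26.7 and 33.4 FPKM in control and at 46.2, 55.3 and 48.2 FPKM in CR. The likeness covers 6 libraries in 2 groups and is a description.

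Listed precursors of neuropeptides and hormones moved in both directions, and which of them these enzymes cut was not examined. Of 30 tested neuropeptide and hormone precursor genes, 17 rose, 3 fell and 10 did not pass, where 17.7% of all tested genes rose and 16.2% fell. The median log2 fold change was 0.75. Among the 17, Avp, Oxt, Pmch, Pomc, Agrp and Trh also belong to the hypothalamic markers summed above, so they are not a result separate from those sums. Of the 17, 5 (Ghrh, Oxt, Npvf, Calca and Bdnf, named after their values were seen) averaged under 0.5 FPKM in control and passed the filter on low values only through CR, so the filter helps to set this count and this median. When the mean had to reach 2 FPKM, 9 rose and 3 fell. Pmch, the precursor of melanin-concentrating hormone, was at 0.383, 0.477 and 1.31 FPKM in control and at 17.02, 28.5 and 17.1 FPKM in CR (log2 fold change 3.66, limma adjusted p = 0.000282). Avp, Oxt and Gal, which encode the precursors of vasopressin, oxytocin and galanin, had log2 fold changes of 2.74, 1.53 and 1.35. Those of the low genes Oxt and Gal depend on the pseudocount, and with limma-voom on the recovered reads they were 3.79 and 2.24, that of Oxt then above the 3.24 of Avp. Among abundant precursors, Nts (neurotensin), Npy (neuropeptide Y) and Cck (cholecystokinin) fell, whereas Sst (somatostatin), named after its values were seen, rose from a mean of 137 to 224 FPKM (limma adjusted p = 0.00887). Nts fell from 96.7 ± 19.0 to 55.8 ± 2.01 FPKM, Npy from 222 ± 56.6 to 129 ± 13.3 FPKM and Cck from 124 ± 11.6 to 82.1 ± 4.98 FPKM (limma adjusted p = 0.00371, 0.0164 and 0.00178). Npy did not pass when CR replicate 2 was left out (adjusted p = 0.0629). Summed over the 42 listed precursors in the tables, the level was 711 ± 45.8 FPKM in control and 705 ± 27.7 FPKM in CR, where the sum over the 10 granin and processing genes was 758 ± 62.9 and 1135 ± 46.2 FPKM.

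A broad list for dense-core vesicle formation, loading and release held 33 tested genes. Of these, 16 rose, 1 fell and 16 did not pass, where 17.7% of all tested genes rose and 16.2% fell. The 16 include Peg3, which is not itself a vesicle gene (log2 fold change 0.96, limma adjusted p = 0.00256). The median log2 fold change was 0.19. Slc18a2, the vesicular monoamine transporter, was at 0.808, 1.27 and 1.45 FPKM in control and at 5.42, 5.67 and 4.93 FPKM in CR (log2 fold change 1.55, limma adjusted p = 0.000525). Rab27b, a small GTPase of granule docking, rose from 2.53 ± 0.542 to 6.92 ± 0.366 FPKM. The calcium sensor gene Syt9 rose from 2.05 ± 0.514 to 5.47 ± 0.598 FPKM, and Cyb561, which encodes the electron carrier that regenerates ascorbate in granules, from 4.03 ± 0.166 to 9.66 ± 1.04 FPKM (limma adjusted p = 0.000912, 0.00182 and 0.000511 for the 3 genes). Slc18a2 and Cyb561 serve monoamine vesicles and peptide amidation rather than granin sorting. Ccdc186, needed for dense-core vesicle cargo sorting, was the member that fell (13.9 ± 1.47 and 10.9 ± 0.245 FPKM, limma adjusted p = 0.0176), and it did not pass when CR replicate 1 (adjusted p = 0.0509) or CR replicate 2 (0.0634) was left out.

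**Figure D5:**
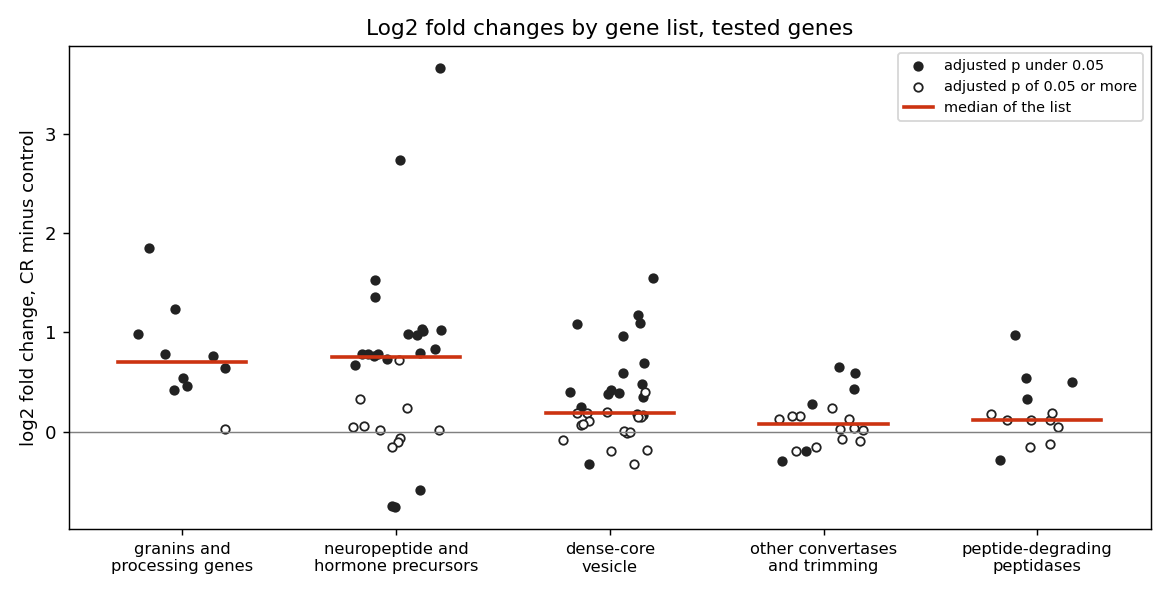
Log2 fold changes (vertical axis, CR minus control) of the tested genes of 5 lists (horizontal axis), filled where the adjusted p was under 0.05, with the median of each list in red. Medians are 0.70 for the granins and processing genes, 0.75 for the precursors (5 of which passed the filter only through CR), 0.19 for dense-core vesicle genes, 0.08 for the other convertases and trimming enzymes and 0.12 for peptide-degrading peptidases.

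Convertases outside the regulated pathway and other peptide-modifying enzymes numbered 18 among those tested, of which 4 rose, 2 fell and 12 did not pass. That share is near the 33.9% of all genes, and the median log2 fold change was 0.08. Furin (6.36 ± 0.549 FPKM in control and 5.61 ± 0.203 FPKM in CR), Pcsk5, Pcsk6 and Pcsk7 did not pass (limma adjusted p = 0.185, 0.521, 0.884 and 0.863), and were named after their values were seen. Pam, the enzyme that amidates the ends of many neuropeptides, fell from 40.8 ± 1.82 to 32.9 ± 0.873 FPKM (log2 fold change -0.30, limma adjusted p = 0.00444), with every CR library below every control library. Qpct, which forms the pyroglutamate end of peptides such as thyrotropin-releasing hormone, rose from 12.5 ± 1.2 to 17.2 ± 0.708 FPKM (0.43, adjusted p = 0.00483). Ctsl, a cathepsin that also cuts precursors (0.27, adjusted p = 0.0333), the carboxypeptidase gene Cpm (0.65, 0.0452, and 1.29 with limma-voom) and its relative Aebp1 (0.59, 0.0426) passed as higher, and the aminopeptidase gene Rnpep as lower (-0.19, 0.0224). Leaving out 1 library ended each of these 4 calls. For Ctsl this was control replicate 2, CR replicate 1 or CR replicate 2 (adjusted p = 0.0814, 0.0831 and 0.113), and for Cpm it was any library but control replicate 3 (0.0521 to 0.148). For Aebp1 it was control replicate 1 or any CR replicate (0.0585 to 0.111), and for Rnpep control replicate 2 or any CR replicate (0.0598 to 0.0746).

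Of 13 tested peptidases that degrade released peptides, 4 rose, 1 fell and 8 did not pass, a share near the 33.9% of all tested genes that passed, and the median log2 fold change was 0.12. Ecel1, a neuronal relative of the endothelin-converting enzymes, rose from 1.2 ± 0.559 to 3.31 ± 1.02 FPKM (log2 fold change 0.97, limma adjusted p = 0.0146; 1.6 with limma-voom on the recovered reads). Ace, Trhde and Ece1, which encode angiotensin-converting enzyme, the enzyme that degrades thyrotropin-releasing hormone and an endothelin-converting enzyme, had log2 fold changes of 0.54, 0.50 and 0.33 (limma adjusted p = 0.0302, 0.0176 and 0.0135), and Trhde was at 0.77 with limma-voom. None of these 3 passed when CR replicate 2 (adjusted p = 0.108, 0.0672 and 0.0534) or CR replicate 3 (0.096, 0.0676 and 0.0566) was left out, and Ace did not when control replicate 2 (0.0844) or 3 (0.0687) was. Nln, which encodes neurolysin, a peptidase that cuts neurotensin, fell from 31.9 ± 1.68 to 25.9 ± 0.507 FPKM (limma adjusted p = 0.00577).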

How the data were processed

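Expression was deposited by the authors as FPKM per Ensembl gene, 1 table per library, with an exon length for each gene per the file headers. The submitters' processing notes name STAR 2.7.10a, featureCounts 2.0.1, cutadapt 1.16, Trimmomatic 0.36, Trim Galore 0.4.4 and the build mRatBN7.2. Their order and settings, strand included, are not given in the sources used here; antisense genes that overlap may share reads. FPKM times length took whole multiples (within 0.05) of a single step in 100% of values, which gave the reads per gene. Read floors and read numbers cover counting error only.

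Genes averaging 0.5 FPKM or more were fitted with limma 3.58.1 (R 4.3.3) on log2(FPKM + 1), group as the only term, with a trend, two-sided. Folds are ratios of mean FPKM, and values are mean ± SD over 3 libraries. Ratios used exact permutation over libraries. Where a symbol had several IDs the highest was used. Sequences are from RefSeq, build GRCr8. On simulated data for 15247 genes the fit recovered 0%, 32%, 78% and 98% of genes changed 1.25-, 1.5-, 2- and 4-fold, and 8 of its 112 calls fell on unchanged genes. The simulated data held far fewer changed genes than the 5173 called here, and the same spread beyond counting noise for every gene. These rates therefore do not carry over to the fit of the real data.

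Members and lists were chosen with earlier results of these data known. The text names all 10 members and, of each related list, up to 4 called genes in each direction with the largest log2 fold changes and a mean of at least 1 FPKM, and the nearest patterns as described. Alternatives were pseudocounts of 0.1 and 0.5, quantile normalization, median-ratio size factors, no filter, a filter at 2 FPKM, no trend, robust limma, a replicate block, Y-linked RNA as a covariate (present in 1 control and 2 CR libraries), limma-voom with TMM factors on the recovered reads and leaving out each library.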

Additional observations from a re-analysis of the deposited data

How the results depend on the processing

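Of 169 refits of the 10 genes, 166 stayed on the same side of the threshold, and 3, all for Pcsk2, lost the call. The 166 include the refits of Scg3, which had no call to keep and changed sign under median-ratio size factors and quantile normalization. Pcsk2 ran from 0.34 to 0.53 over fits without 1 library. For the other 8 genes that rose, the adjusted p under these alternatives was at most 0.0247 (Pcsk1). The 2 FPKM filter removed Pcsk1. All tested genes past the threshold numbered 5173, and 3210 to 5042 with 1 library left out, the lowest without CR replicate 2 and CR replicate 3 (3308). Among other convertases and trimming enzymes, 6 calls became 3 in limma without trend, 3 with the Y-linked covariate and 2 to 7 with 1 library left out. Precursor calls numbered 20, and 12 when the mean had to reach 2 FPKM, which tests fewer genes. The 5 calls among peptidases ran from 2 to 5 with 1 library left out. The Pcsk1 to Pcsk1n log2 difference of 0.57 turned to -0.22 with a pseudocount of 1.

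Same-numbered control and CR libraries share only a number: their deviations from group means correlated at 0.02, 0.02 and 0.05, though each library correlated best with its own number. With that number as a replicate block 4445 genes passed and all 9 calls among the 10 genes were made, while Cpm, Ctsl and Ace did not pass (limma adjusted p = 0.0756, 0.0648 and 0.0657); the ratios kept their log2 differences of 1.11, -0.33 and 0.57, with sign-flip exact permutation p of 0.25, 0.5 and 0.25, where 0.25 is the smallest possible. Depth limits Pcsk1 most, with 28 reads in control replicate 1.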
